A study of Mus musculus with 12 samples.

Results

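The DnaJ proteins, or HSP40 co-chaperones, were examined as a family in RAW264.7 cells, a mouse macrophage line. Members were taken as the protein-coding genes whose symbol begins with Dnaja, Dnajb or Dnajc and that had at least 10 estimated counts in at least 3 of 12 libraries. Of 45 annotated genes 38 met this rule, among 13906 genes that passed the same filter, and all 38 passed it in all 12 libraries. The rule reads abundance in every library, so which members are expressed is a description and not a finding. Dnajc28 was the member nearest the limit, with 26 to 52 estimated counts, and Dnajb7, with 0 to 5, lay just outside it. The other 6 that failed, Dnaja4, Dnajb3, Dnajb8, Dnajc5b, Dnajc5g and Dnajc6, reached at most 3 counts in any library. The question was whether Dnajc12 moved alone. Dnajc12 had been singled out with its differences in these libraries already known. Its values, and the fits that put it under a threshold, are therefore given below as a description and are no test of it.

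All libraries came from RAW264.7 cells kept for 48 h with extracellular vesicles (EVs) at 3 µg protein per ml, collected from the mouse endothelial line MS-1. Electroporation had loaded these EVs with a mimic, a synthetic miRNA: miR-183-5p, miR-142-5p, miR-222-3p, or as control (ctrl-EVs) the worm sequence cel-miR-67 given in the methods. Each of the 4 groups held 3 libraries, numbered 1 to 3 in the titles, and every group, controls included, received electroporated MS-1 EVs, so no library shows cells without EVs. A single cell line was used, and the labels do not say whether libraries of a group came from separate cultures or what a shared title number stands for; p-values therefore measure the spread between these libraries, which may be technical. Library totals ran from 16294611 to 22974853 estimated counts. All 10 macrophage markers on the list exceeded 1 TPM, a length-corrected share of all transcripts, in every library, with summed levels of 914 to 1248 TPM in ctrl-EVs and 930 to 1326 TPM in the other groups. Of 10 endothelial markers 6 stayed under 1 TPM throughout and 2 exceeded it throughout, and all 5 fibroblast markers stayed under 1 TPM, with Col3a1 listed at 0.

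DnaJ proteins carry a J domain, which binds HSP70 chaperones and stimulates their ATPase, so that HSP70 closes on a client protein. Class A and B members mostly bind clients themselves, whereas the larger class C is defined by the J domain alone and contains many members with a fixed place of work, such as the translocon of the endoplasmic reticulum (ER), the mitochondrial import motor, clathrin-coated vesicles or the ribosome. Several members are induced with HSP70 genes when unfolded protein accumulates in the cytosol or in the ER. DNAJC12 is known as a co-chaperone of tyrosine and tryptophan hydroxylases. Of the genes of these enzymes, Th, Tph1 and Tph2 did not exceed 0.284, 0.742 and 0.104 TPM in any library.

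The 3 mimics share no seed. The mature mouse sequences were taken from RefSeq (GRCm38.p6) and are shown because the search for target sites rests on them, with the seed, bases 2 to 8, in capitals. RefSeq names the first miR-142a-5p.
mmu-miR-142a-5p: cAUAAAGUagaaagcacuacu
mmu-miR-183-5p: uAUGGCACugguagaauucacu
mmu-miR-222-3p: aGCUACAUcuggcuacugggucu
They lie at chr11:87756867-87756887 on the plus strand, at chr6:30169711-30169732 on the minus strand and at chrX:19146901-19146923 on the minus strand.

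Members differed widely in abundance. Mean TPM, which can be compared between genes, ran from 1.12 for Dnajc28, a mitochondrial class C member, to 164 for Dnajc8, a class C member associated with splicing, with a median of 24.2 TPM over the 38. After Dnajc8 came Dnaja1 (163 TPM), Dnajc7 (152 TPM), Dnaja2 (143 TPM) and Dnajb6 (125 TPM), the general cytosolic co-chaperones. Their ranges over the 12 libraries overlapped: 133 to 186 TPM for Dnajc8, 138 to 198 TPM for Dnaja1 and 124 to 163 TPM for Dnaja2, so their order is not fixed beyond that spread. Dnajb1, the classical inducible HSP40, was far lower, at 17.9 TPM (range 14.3 to 21.1 TPM). At the bottom, Dnajb14, an ER-membrane member, had 4.63 TPM and Dnajb5 had 3.57 TPM, above Dnajc28. Dnajc12 ranked 30 of 38, at 10.4 TPM (7.19 to 14.4 TPM).

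**Figure D1:**
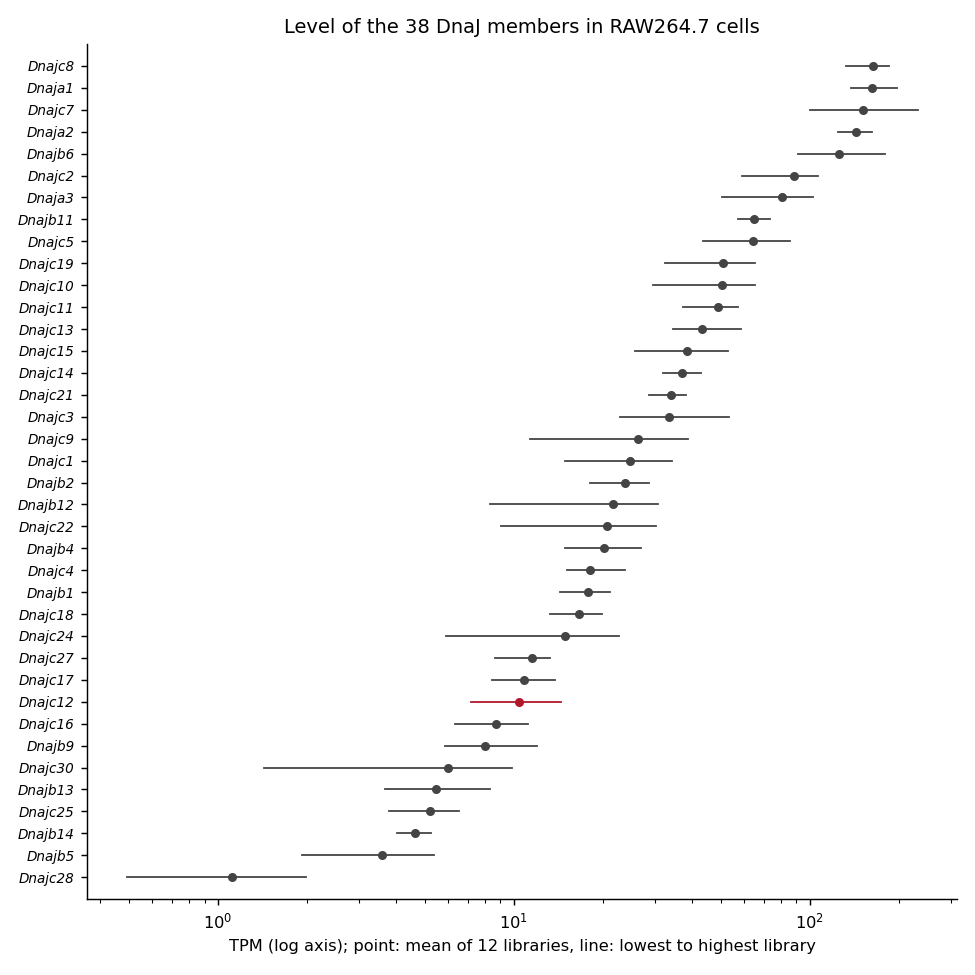
Level of each of the 38 DnaJ members in TPM on a log axis; points are means over 12 libraries and lines run from the lowest to the highest library. Dnajc12, in red, sits in the lower part at 10.4 TPM, and Dnajc8, Dnaja1, Dnajc7, Dnaja2 and Dnajb6 lead with overlapping ranges.

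To determine whether the family responded to the mimics, the DESeq2 Wald test was run on all 13906 genes for every mimic against ctrl-EVs, and a gene was called at a Benjamini-Hochberg adjusted p under 0.05. No member was called with miR-142-5p-EVs, where 0.00719% of all genes were called. None was called with miR-222-3p-EVs, with miR-183-5p-EVs or with the 9 miR-EV libraries pooled, where 0% of all genes were. The likelihood ratio test over the 4 groups also called 0 members, against 0.00719% of all genes. At an unadjusted p under 0.05, each of these 5 tests held 1 member, Dnajc12, and 0 of the other 37, while all genes reached 0.525% in the miR-142-5p comparison, 0.992% with miR-183-5p-EVs, 0.726% with miR-222-3p-EVs, 1.66% when pooled and 0.482% over the 4 groups. With the libraries numbered 2 left out, 0 members were called in these 5 tests as well, where all genes came to 0.0144%, 0.036%, 0.0216%, 0.201% and 0.0431% in the same order. edgeR's quasi-likelihood test called 0 members in each of them too, and 0% of all genes. At an unadjusted p under 0.05 it held 1 member in 4 of them and 0 with miR-222-3p-EVs. Of the 13906 genes 63, 92, 66, 166 and 38 were under that limit, in the same order.

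Libraries with the same title number deviated together, so the number was added to the model as a block. With the block 1 member, Dnajc12, was called with miR-183-5p-EVs, where 0.41% of all genes were, and with all miR-EVs together, where 1.63% were. The other 37 members stayed uncalled, the lowest adjusted p among them being 0.364 with miR-183-5p-EVs and 0.19 with all miR-EVs, by the same DESeq2 test. With miR-142-5p-EVs (0.0575% of genes), with miR-222-3p-EVs (0.0288%) and over the 4 groups (0.101%) no member was called. edgeR with the block called 0 members in all 5 comparisons, but also 0% of all genes, so its count says nothing of the members. With p adjusted over every gene tested, the Dnajc12 call with miR-183-5p-EVs was lost without ctrl-EVs number 1 or any 1 of the miR-183-5p-EVs libraries, and the call with all miR-EVs was lost in 8 of 12 fits that each left out 1 library: any 1 of the ctrl-EVs or miR-183-5p-EVs libraries, miR-142-5p-EVs number 1 or miR-222-3p-EVs number 3.

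Dnajc12 had been chosen for these contrasts, so its calls are no test of it. Among the other 37, those at an unadjusted p under 0.05 in the blocked fit were 2 with miR-183-5p-EVs, against 10.1% of all genes, 1 with miR-222-3p-EVs, against 6.53%, and 3 when all miR-EVs were pooled, against 13.6%. All of these were lower with the mimic. There were 0 in the miR-142-5p comparison (5.86% of genes) and over the 4 groups (5.36%), so in none of the 5 did the members' share exceed the background. With miR-183-5p-EVs in the blocked DESeq2 fit, Dnajc24, a diphthamide synthesis factor, had a log2 fold change of -0.42 ± 0.20 (SE) and an adjusted p of 0.364. Dnaja3, the mitochondrial HSP40, had -0.17 ± 0.083 with an adjusted p of 0.389. Dnajb2, best known from neurons, had -0.24 ± 0.12 with miR-222-3p-EVs and an adjusted p of 0.637. With all miR-EVs together the splicing-associated Dnajc8 was -0.11 ± 0.047, adjusted p 0.19, and its level was below the same-numbered control in 9 of 9 libraries. That count rests on the same values as its low p and is no separate support. The share of all genes with such a count is not given here. The other 2 there were Dnajb12 (-0.16 ± 0.082) and Dnajb2 (-0.17 ± 0.086), each with an adjusted p of 0.296. The normalized counts of Dnajc8 were 2902, 2636 and 2686 in ctrl-EVs numbers 1, 2 and 3, and 2398 to 2678 in the 9 miR-EV libraries, so the groups overlapped slightly. None of these passed the adjusted threshold, and they were picked for their low p. In the other direction, without the block, Dnajc27, a Rab-like J protein, had 0.16 with miR-183-5p-EVs (0.09 in the miR-142-5p comparison), Dnajc16 had 0.07 with miR-142-5p-EVs, and the ER co-chaperone Dnajb9 had 0.21 with miR-222-3p-EVs, none of them called. The sign of 3 of these was not stable: Dnajb9 was -0.070 without the length correction and -0.19 without 1 library, and with miR-142-5p-EVs Dnajc27 reached -0.074 and Dnajc16 -0.013 without 1 library.

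Without the block the median log2 fold change over 38 members was -0.03 with miR-183-5p-EVs and -0.04 with each of the other mimics and with all miR-EVs, beside 0.01 over all tested genes each time. With the block the member median with miR-183-5p-EVs was -0.063, with edgeR and the block it was -0.073, and without the block leaving out 1 library moved it between -0.089 and -0.032. Of 38 members 27 were lower in the miR-142-5p comparison, 25 with miR-183-5p-EVs, 24 with miR-222-3p-EVs, and 25 when all miR-EVs were pooled. The 4 comparisons share the same 3 ctrl-EV libraries, so these counts are not independent. The share of all genes that were lower is not given here, so the counts do not show a shift of the family. The median size of the change, sign ignored, was 0.11 for the members with miR-183-5p-EVs and 0.14 for all genes. With the block the 95% interval of the log2 fold change lay wholly within -0.5 and 0.5 for 35 of the other 37 members with all miR-EVs, for 31 with miR-142-5p-EVs, for 30 with miR-183-5p-EVs, and for 33 when miR-222-3p was the mimic. Dnajc28, at 44.5 mean normalized counts, had the widest interval with miR-183-5p-EVs: its log2 fold change was 0.69 ± 0.45, and its 95% interval reached 1.57.

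**Figure D2:**
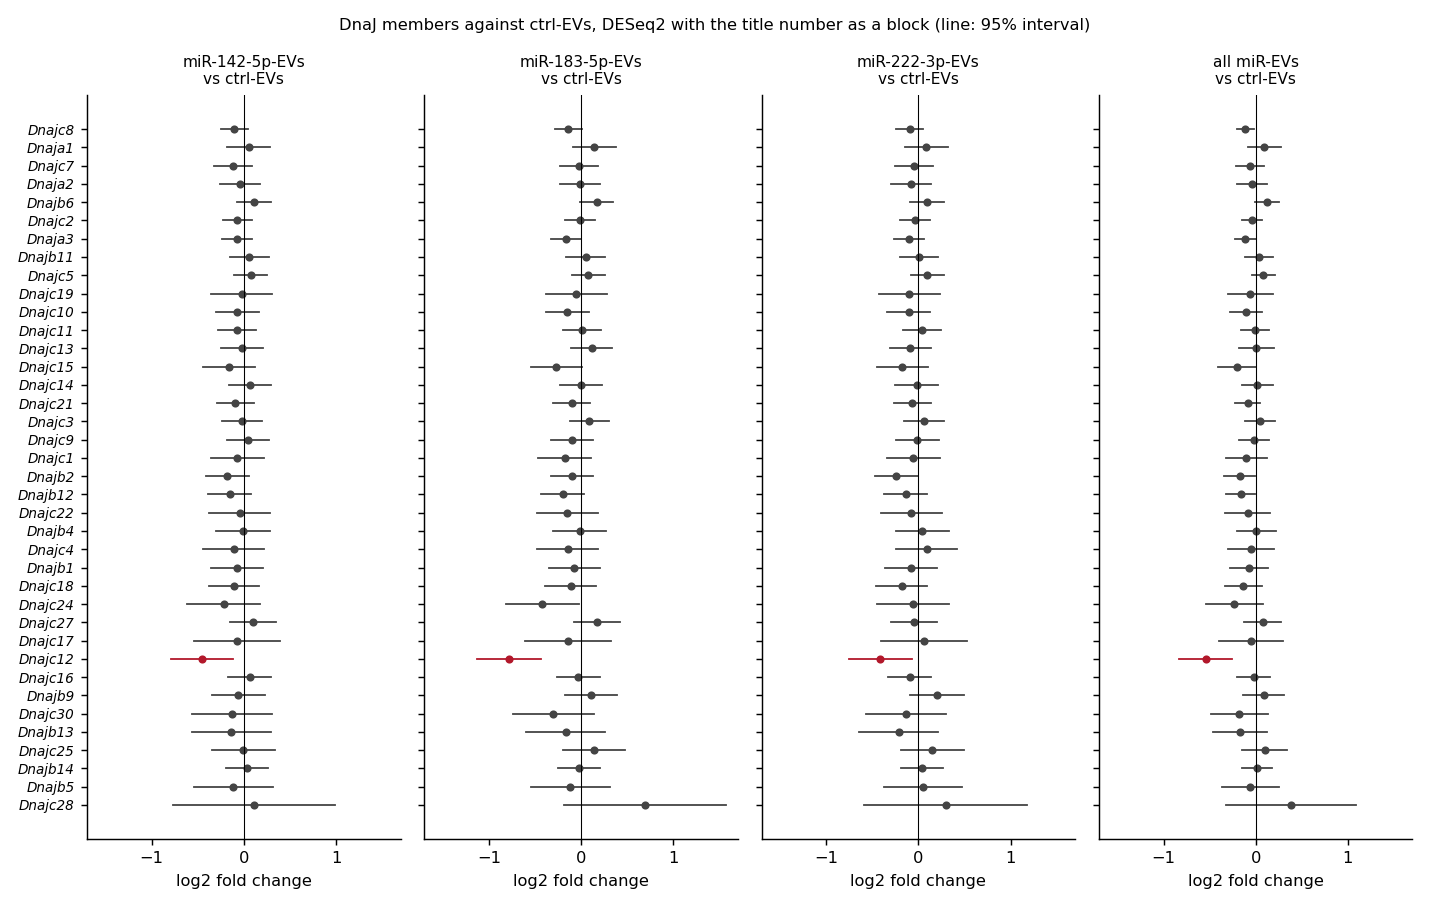
log2 fold change of each DnaJ member against ctrl-EVs in the fit with the title number as a block, ordered by mean TPM; points are estimates and lines 95% intervals, with 3 libraries per group. Dnajc12, in red, lies at -0.45, -0.78, -0.41 and -0.54 from left to right. Most other intervals include 0, but not all, and the widest is that of Dnajc28. With all miR-EVs the intervals of Dnajc8, Dnajb12 and Dnajb2 also lie below 0.

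None of the general heat-shock members was called. Dnaja1, a farnesylated partner of Hspa8, had 3703, 3524 and 3133 normalized counts in ctrl-EVs and, in miR-183-5p-EVs, 3619, 5121 and 2988. The library numbered 2 was the high one in each miR-EV group, at 4153 to 5121, and the remaining miR-EV libraries, 2988 to 3619, overlapped the controls. Dnajb6, a suppressor of protein aggregation, ran from 2073 to 3524 in ctrl-EVs and from 2084 to 4667 in the miR-EV libraries. Dnajb1 had 681, 768 and 839 in ctrl-EVs and 568 to 1006 elsewhere, and Dnaja2 had 3701 to 4208 in ctrl-EVs and 3043 to 5174 elsewhere. For all 4 genes the library numbered 2 was the highest of each miR-EV group.

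Nor were their partners called. None of 14 HSP70 and HSP110 genes, 15 exchange factors and adaptors, 14 HSP90, small HSP, chaperonin and HSF genes or 4 J proteins with other symbols was called in any of the 5 comparisons, with or without the block. Of all genes 0% to 0.00719% were called in these comparisons without the block and 0.0288% to 1.63% with it. At such shares, 0 calls in lists this short says nothing of the partners. Hspa8, the constitutive HSP70, had 19660 ± 2118 normalized counts (SD, n = 3) in ctrl-EVs and 24689 ± 11884 in miR-183-5p-EVs. Hspa9, the mitochondrial HSP70, had 25026 ± 1378 and 24411 ± 2981. Enzymes of tetrahydrobiopterin, the cofactor of the hydroxylases that DNAJC12 serves, were expressed (Pts at 106 TPM, Qdpr at 67.9 TPM, Gch1 at 14.8 TPM and Spr at 14.0 TPM). Of the 7 tested genes of that list 0 were called, against the same shares of all genes.

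Dnajc12 itself (ENSMUSG00000036764.12, chr10:63382443-63410576, plus strand, GRCm38) was lower in each miR-EV library than in the controls. Its normalized counts were 226, 215 and 248 in ctrl-EVs numbers 1, 2 and 3. They were 146, 154 and 207 in miR-142-5p-EVs, 124, 142 and 136 in miR-183-5p-EVs, and 162, 175 and 182 in miR-222-3p-EVs. The highest miR-EV library, miR-142-5p-EVs number 3, lay under the lowest control, and all 9 were below the control of their own number. Group means were 230 ± 16.7 (SD, n = 3), 169 ± 33.1, 134 ± 8.99 and 173 ± 9.96. Of all genes 0.129% had the 9 miR-EV libraries wholly below the 3 controls and 0.173% wholly above, and Dnajc12 was the one member in either set. The log2 fold changes without the block were -0.45 ± 0.19 (SE), -0.78 ± 0.19 and -0.41 ± 0.19, and -0.54 ± 0.17 for all 9 libraries. With the length correction the difference was present within numbers 1, 2 and 3 alike. With the 4 libraries of number 2 left out it was -0.86 with miR-183-5p-EVs and -0.58 with all miR-EVs.

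The size of that difference depended on how transcript length was handled. Salmon divides reads among annotated transcripts, and the fit corrects a gene's counts for the mean effective length of the transcripts it is assigned to. That length was 955, 1162 and 957 nt for Dnajc12 in ctrl-EVs and 1370, 1040 and 1393 nt in miR-183-5p-EVs. Before the correction the controls held 9.66, 10.9 and 10.7 CPM, counts scaled to the library total, and miR-183-5p-EVs 7.71, 5.93 and 9.04 CPM. miR-142-5p-EVs held 7.18, 8.33 and 10.9 CPM. Its number 3 lay within the control range and above the control of its own number, at 10.7 CPM. So on the uncorrected scale the groups of 9 and 3 overlapped, and not every miR-EV library was below its control. Without the length correction the log2 fold change shrank to -0.44 with miR-183-5p-EVs and -0.30 with all miR-EVs, and Dnajc12 was not called with the block in either comparison (with miR-183-5p-EVs, by p adjusted over every gene tested, since DESeq2's independent filter left it without one).

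By transcript, the short form Dnajc12-202 was the one lower than its control in all 9 miR-EV libraries, while Dnajc12-201 and Dnajc12-203 were lower in 5 of 9 each. The model of Dnajc12-202 has 592 nt in 5 exons, of which the first, 76 nt at chr10:63382443-63382518, belongs to no other Dnajc12 transcript; its coding sequence and 3′ end are annotated as incomplete. Its TPM was 10.2, 7.91 and 10.9 in ctrl-EVs, 6.18, 5.09 and 9.20 in miR-142-5p-EVs, 4.28, 5.13 and 5.06 in miR-183-5p-EVs, and 6.39, 5.78 and 8.35 in miR-222-3p-EVs. Each miR-EV library was below the control of its number, and the miR-183-5p-EVs libraries were below all controls, with a mean 0.499 times that of ctrl-EVs. The full-length coding form Dnajc12-201 (3025 nt, first exon at chr10:63386563-63386775) had 2.17, 2.53 and 2.30 TPM in ctrl-EVs and 1.99, 1.20 and 2.80 TPM in miR-183-5p-EVs, which overlap. The retained-intron form Dnajc12-203 had 1.11, 1.48 and 1.22 TPM in ctrl-EVs and 1.25, 0.860 and 1.09 TPM in miR-183-5p-EVs. Dnajc12-202 made up 72.5 ± 5.33% (SD, n = 3) of the gene's TPM in ctrl-EVs and 61.6 ± 8.46% in miR-183-5p-EVs. In number 2 of miR-183-5p-EVs all 3 forms were below those of ctrl-EVs, and the share of Dnajc12-202 was 71.4% there against 66.4%. It rested on 41.8 to 68.1 estimated counts per control library and 28.2 to 31.2 per miR-183-5p-EVs library. How well reads can be told apart between 202 and 201, which share all but the first exon of 202, was not tested.

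**Figure D3:**
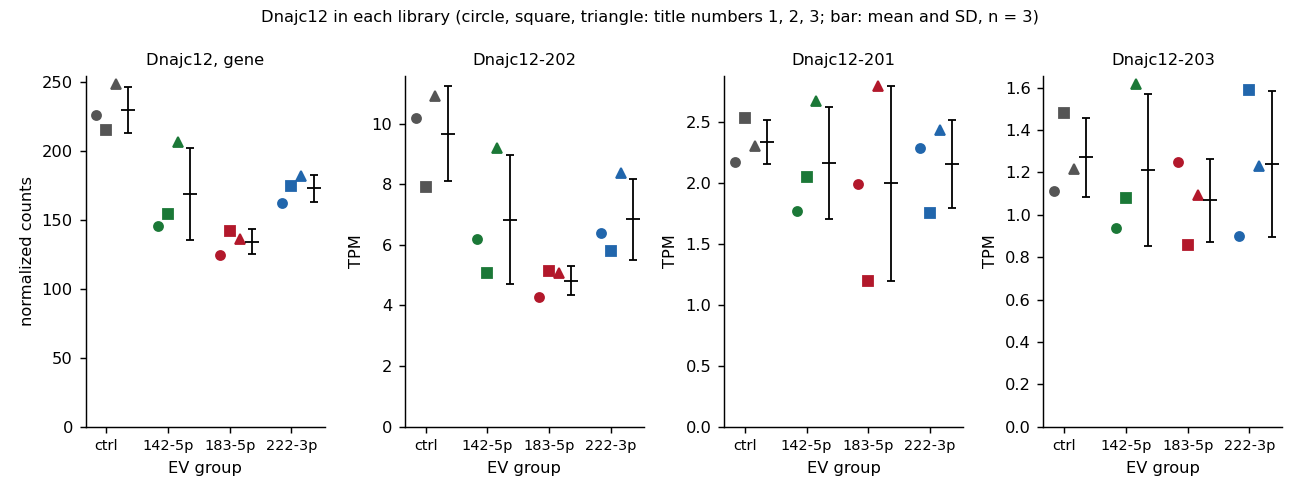
Dnajc12 as normalized counts of the gene (left) and TPM of its 3 annotated transcripts, by EV group; circles, squares and triangles are title numbers 1, 2 and 3, and bars give mean and SD of 3 libraries. The means of the gene and of Dnajc12-202 are lower in all miR-EV groups, lowest in miR-183-5p-EVs (134 normalized counts, 4.82 TPM). Dnajc12-202 in number 3 of miR-142-5p-EVs (9.20 TPM) and of miR-222-3p-EVs (8.35 TPM) lies above ctrl-EVs number 2 (7.91 TPM). Dnajc12-201 and Dnajc12-203 overlap the controls in every group.

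Dnajc12 was not the one member called under every fit. When the 4 libraries numbered 2 were left out, a choice made after seeing the data, the blocked DESeq2 fit of all miR-EVs against ctrl-EVs called Dnajc15, a J protein of the mitochondrial inner membrane, at a log2 fold change of -0.33 ± 0.10 (SE) and an adjusted p of 0.0378. That fit called 3.59% of all genes, so 1 member of 38 is no more than the background. The blocked fit without these libraries called 0 members in the miR-142-5p comparison (0.209% of genes), the miR-183-5p comparison (0.101%), the miR-222-3p comparison (0.144%) and over the 4 groups (0.28%). In the fit of all miR-EVs Dnajc12 missed the threshold with a larger log2 fold change than Dnajc15, -0.58 ± 0.19. Normalized counts of Dnajc15 in numbers 1 and 3 were 587 and 712 in ctrl-EVs, 515 and 585 in miR-142-5p-EVs, 483 and 510 in miR-183-5p-EVs, and 470 and 523 in miR-222-3p-EVs, all 6 miR-EV libraries being lower than the control of their number. In number 2 they were 399 in ctrl-EVs and 403, 397 and 484 in the miR-EV groups, level or higher. With all 12 libraries the blocked fit gave -0.20 ± 0.10 and an adjusted p of 0.314.

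To look for direct target sites, the 7 nt that pair with each seed (ACTTTAT for miR-142-5p, GTGCCAT for miR-183-5p, ATGTAGC for miR-222-3p) were sought in the 3′ UTR of the most abundant coding transcript with an annotated one. For Dnajc12 that was Dnajc12-201, whose 3′ UTR of 2293 nt held none of the 3. Dnajc12-202 has no annotated 3′ UTR and could not be searched. Members with a site numbered 4 of 38 for miR-142-5p (10.5%, against 13.6% of 13141 genes), 5 for miR-183-5p (13.2%, against 8.86%) and 6 for miR-222-3p (15.8%, against 9.18%). Some of the sites are printed in their DNA letters, with the site in capitals, because they are the members a reader would look up first.
Dnajb1, miR-183-5p, chr8:83612143-83612149, plus strand: ggattacaGTGCCATctgcctga
Dnajc3, miR-183-5p, chr14:118981076-118981082, plus strand: gctggcatGTGCCATgaaggcgg
Dnaja2, miR-142-5p, chr8:85538920-85538926, minus strand: ttgtgtagACTTTATgtttcata
Dnajc7, miR-142-5p, chr11:100582852-100582858, minus strand: attgtttaACTTTATtaaaaaag
Dnajc5, miR-222-3p, chr2:181551416-181551422, plus strand: cctcctgcATGTAGCtctgtggc
Dnajb14 held a site for each of the 3 mimics, and for miR-183-5p it held 2. None of these members was called. In the blocked fit the log2 fold change with the matching mimic was -0.074 for Dnajb1, 0.089 for Dnajc3, -0.042 for Dnaja2, -0.12 for Dnajc7 and 0.096 for Dnajc5. Over the members with a miR-183-5p site the median was -0.02 with miR-183-5p-EVs, and over those without it -0.10. A match of letters is a description and does not show a working site.

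The larger differences in the family followed the title number. With the EV group held, a likelihood ratio test called 30 of 38 members (78.9%), against 69.4% of all genes, so that a share of this size was common to the transcriptome. edgeR also called 30, against 70.2% of genes. The test covers any difference among the 3 numbers. Of the 38 members 17 (44.7%) were called and lay above the mean of numbers 1 and 3 in number 2, against 34% of all genes tested. Called and below it were 13 (34.2%), against 35.4%. Number 2 was the highest of the 3 in 15 called members of the 38, against 30.5% of all genes tested. It was the lowest in 13, against 31.6%, and lay between the others in the called Dnajb2 and Dnajc13. In Dnajc7 the larger difference was that of number 3, 0.62 above number 1, with number 2 at -0.12. Without the length correction 32 members were called, against 74.1% of genes: Dnajc1 and Dnajc14 were lost, and Dnajc8, Dnajc11, Dnajc18 and Dnajc28 were gained. Number 2 also had fewer total counts, 16294611 to 18927524 against 18990222 to 22974853 in the other numbers, and a lower summed level of the 10 macrophage markers, 914 to 948 TPM against 1138 to 1326 TPM, with 7 of the 10 called (2 higher, 5 lower). The summed level of 10 endothelial markers was lower as well, 15.5 to 18.0 TPM against 25.8 to 34.3 TPM, with 5 of 6 tested called (1 higher, 4 lower). Whether these values bear on the members was not tested, and in bulk RNA fewer cells of a kind and less RNA per cell cannot be told apart. The range between numbers had a median of 0.47 on the log2 scale over the members and 0.62 over all genes. Dnajc12 was among the 8 members not called, with a range of 0.23, as were Dnajc8 (0.11) and the ribosome-associated Dnajc21 (0.018).

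Of 11 ER members 9 were called, 6 above the mean of numbers 1 and 3 in number 2 and 3 below it. Among all genes tested 69.4% were called, 34% above that mean and 35.4% below it. Dnajc3, a luminal co-chaperone that restrains the kinase PERK and passes clients to the ER HSP70, had 1974, 3604 and 1702 normalized counts in ctrl-EVs and 1752, 3524 and 1869 in miR-142-5p-EVs, and it was 4535 and 4234 in number 2 of the other groups. All 4 libraries of number 2 (3524 to 4535) lay above all 8 others (1702 to 1974), and the fitted range was 1.17 on the log2 scale with an adjusted p of 3.4e-43 in DESeq2's likelihood ratio test. Dnajb9, also called ERdj4, had 319 to 408 in number 2 against 171 to 216 elsewhere, a range of 1.01. Dnajb11, also called ERdj3, had a smaller range of 0.40. Dnajb12, a J protein of the ER membrane in protein disposal, went the other way, with 337 to 463 in number 2 against 847 to 1006 elsewhere and a range of 1.18. Hspa5, the ER HSP70 that these co-chaperones serve, had 53813 to 77276 normalized counts in number 2 and 14980 to 17794 in the others, without overlap.

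All 9 cytosolic members were called, 7 above that mean and 2 below. Dnajb6 had 3524, 4288, 4667 and 4256 normalized counts in number 2 of the 4 groups, and 2073 to 2389 in the 8 others. Its range was 0.98 (0.57 without the length correction), that of Dnajb13, a testis-type member at 99.9 mean normalized counts, 1.06, and those of Dnajb1, Dnaja1 and Dnaja2 were 0.58, 0.47 and 0.43. Their partner Hspa1b, the inducible HSP70, was 317 ± 118 normalized counts (SD, n = 4) in number 2 and 29.6 ± 8.56 and 15.4 ± 9.24 in numbers 1 and 3. Of 14 tested HSP70 and HSP110 genes 9 were called, 8 of them above. Of 7 mitochondrial members 5 were called, 1 above and 4 below, and of 6 acting at the ribosome, on RNA or in the nucleus 3 were, all below. The share called among all genes was 69.4%, with 34% above and 35.4% below. Whether classes this small differ from that share was not tested. Dnajc30, a partner of the ATP synthase, had 67.8, 64.3, 35.8 and 48.4 normalized counts in number 2 against 137 to 192 elsewhere, a range of 1.74. Dnajc9, a histone chaperone, had 252 to 297 in number 2 and 523 to 676 elsewhere, a range of 1.25. Dnajc22, a little-studied membrane J protein, had a range of 1.15, with numbers 1 and 3 also apart.

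**Figure D4:**
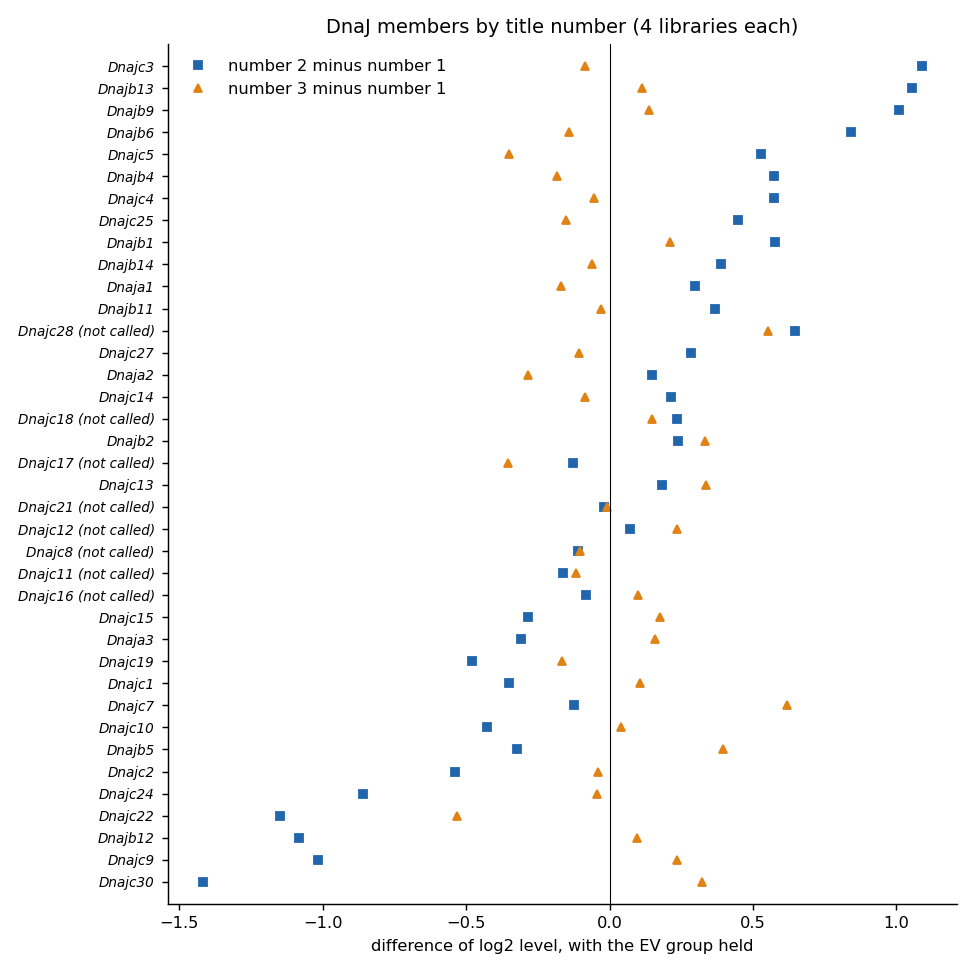
Difference of the fitted log2 level of each member between title numbers, with the EV group held; squares give number 2 minus number 1 and triangles number 3 minus number 1, over 4 libraries per number. Dnajc3, Dnajb13 and Dnajb9 lie above 1 in number 2 and Dnajc30, Dnajc22, Dnajb12 and Dnajc9 below -1, while Dnajc12 lies near 0.

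Some number differences were differences of transcript. Dnajc7-201, the leading coding form of the TPR-containing Dnajc7, had 25.8 ± 1.18 TPM (SD, n = 4) in number 2, 69.5 ± 3.90 TPM in number 1 and 86.9 ± 2.61 TPM in number 3. Its share of the gene's TPM was 24.1 ± 1.45%, 52.6 ± 4.43% and 40.5 ± 2.72% in the same order. For Dnajb6, which was higher as a gene, the coding form Dnajb6-203 was lower in number 2, at 29.0 ± 3.86 TPM against 53.5 ± 4.01 TPM and 51.5 ± 3.05 TPM in numbers 1 and 3. A processed transcript of Dnajb6, annotated without a coding sequence, made up 24.5% of the gene's TPM there and 10.5% and 6.52% in numbers 1 and 3. So for Dnajb6 the gene's level and that of its leading coding transcript differed in direction between numbers.

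Promoters were searched because the called members above the mean of the other numbers in number 2 include ER and heat-shock genes. RefSeq promoters (GRCm38.p6, 250 bases before the start to 50 after) were matched by symbol for 31 of 38 members, Dnajc12 not being among them. The ER stress element, CCAAT and CCACG 9 bases apart on either strand, was in the promoter of 1 member, Dnajc3, against 0.135% of 10353 genes with a promoter. The heat shock element of 3 units, GAA, TTC and GAA 2 bases apart or its complement, was in 1 member, Dnajb6, against 0.56% of genes. With 2 units (GAANNTTC or TTCNNGAA) it was in 5 of the 31, against 14.5% of genes, and every match with 3 units also counts here. These were Dnaja1, Dnajb4, Dnajb6, Dnajc10 and Dnajc27. In number 2 Dnajc10 lay below the mean of numbers 1 and 3, by -0.45 on the log2 scale, and the others lay above it. A match of letters is a description and does not show a working element, and whether the elements bear on the levels was not tested. The matching stretches of Dnajc3 and Dnajb6, and that of Hspa5 for comparison, are printed 5′ to 3′ along the gene with the element in capitals.
Dnajc3, chr14:118937823-118937849, plus strand: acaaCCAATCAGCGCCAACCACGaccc
Hspa5, chr2:34772021-34772047, plus strand: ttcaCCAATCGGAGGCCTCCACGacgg
Dnajb6, chr5:29735848-29735868, plus strand: ccgaGAATCTTCCGGAAcgct
Dnajb9 and Dnajb11, which were higher too, held no match to the ER stress element in this window.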

How the data were processed

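The 12 libraries were stranded mRNA read pairs that the authors assigned to mouse Ensembl transcripts with Salmon. The deposited files give, per transcript, estimated counts that need not be whole, TPM and an effective length; replicates were not pooled. The submitters' processing notes name the build GRCh38, a human build, although the transcripts are mouse. Transcripts were matched by identifier to GENCODE vM21 (GRCm38), 116622 of 118783 of them.

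Gene sums of the estimated counts were rounded. Genes reaching 10 counts in 3 or more libraries were tested with DESeq2 1.42.0 (R 4.3.3), with mean effective length as an offset and an adjusted p threshold of 0.05. The pairing came from the title numbers: deviations from the group means correlated at 0.608 between same-numbered libraries (0.409 to 0.797 over 18 pairs). Between others the value was -0.286. Deviations cancel out within a group, so a negative value there follows from the positive one and is no separate evidence. edgeR 4.0.16, other filters and scalings, and leaving out libraries were alternatives. Scripts were tested on simulated data. TPM keeps no depth, and counting error is larger for members with few counts.

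Members and gene lists were chosen with earlier results of these data known. Genes were named by a rule: Dnajc12, members called between groups, in each comparison with ctrl-EVs the 2 members of lowest p in each direction, the 5 of highest and 3 of lowest TPM, the 6 with the largest range between numbers, Dnaja1, Dnaja2, Dnajb1 and Dnajb6, and the partners Hspa8, Hspa5, Hspa9 and Hspa1b. Others, among them Dnajc15, Dnajc24, Dnaja3, Dnajb11, Dnajc21 and the members printed for a sequence match, were named after their values were seen.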

Additional observations from a re-analysis of the deposited data

Results flagged for a closer look

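In 5 of 38 members (13.2%, against 18.9% of all tested genes) the 3 miR-EV libraries of one title number all lay on the other side of their ctrl-EV library than the 6 libraries of the remaining numbers. Each number holds 1 ctrl-EV library, and the difference was not tested. In number 2, Dnajb1 was higher with the mimics by 0.33 on the log2 scale, against -0.26 in the others, and Dnaja2 by 0.16, against -0.14. In number 1, Dnajc19 was higher by 0.27, against -0.22, and Dnajc21 by 0.070, against -0.16. In number 3, Dnajc16 was higher by 0.20, against -0.13.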

How the results depend on the processing

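The replicate block, the title number in the model, raised the members called from 0 to 1 with miR-183-5p-EVs and with all miR-EVs (Dnajc12), and edgeR with the block called 0. With the libraries numbered 2 left out, chosen after seeing the data, the block gave 1 with all miR-EVs (Dnajc15). It changed no other count of members called between groups. Leaving out 1 library at a time without the block gave 0 to 1 members called with miR-183-5p-EVs, the 1 (Dnajc12) without miR-142-5p-EVs replicate 3. With the block such fits gave 0 with miR-183-5p-EVs, where DESeq2 gave Dnajc12 no adjusted p in 11 of 12, and 0 to 1 with all miR-EVs, where it gave none in 2. With p adjusted over every gene tested, also chosen after seeing the data, they gave 0 to 1 in both: the miR-183-5p-EVs call was lost without ctrl-EVs 1 or any miR-183-5p-EVs library, and the call with all miR-EVs was lost in 8 of 12, without any ctrl-EVs or miR-183-5p-EVs library, miR-142-5p-EVs 1 or miR-222-3p-EVs 3. The cause was not tested.

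The median log2 fold change of the members with miR-142-5p-EVs was -0.076 with edgeR and the block, -0.074 without number 2, -0.081 without number 2 with the block, and -0.070 to -0.025 without 1 library. With miR-183-5p-EVs it was -0.063 with the block, -0.045 with TMM, -0.018 with a minimum of 50 counts, -0.045 with edgeR, -0.073 with edgeR and the block, -0.048 without number 2, -0.050 without number 2 with the block, -0.047 with the block and no length offset, and -0.089 to -0.032 without 1 library. With all miR-EVs it was -0.061 with edgeR and the block and -0.046 to -0.013 without 1 library.

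Without the length offset Dnajb9 with miR-222-3p-EVs turned to -0.070, and to -0.10 with the block. Dnaja1 with all miR-EVs turned to -0.047 without number 2, and to -0.044 with the block. Leaving out 1 library turned Dnajc16 (-0.013 to 0.12) and Dnajc27 (-0.074 to 0.26) with miR-142-5p-EVs, and Dnajb9 (-0.19 to 0.57) and Dnajc28 (-0.083 to 0.81) with miR-222-3p-EVs. By estimated counts Dnajc12-202, Dnajc12-201 and Dnajc12-203 made up 28.3%, 48.8% and 22.9% of Dnajc12 in ctrl-EVs, against 72.5%, 17.8% and 9.71% of TPM. In any annotated transcript, 8, 10 and 10 members held a site for miR-183-5p, miR-142-5p and miR-222-3p. These were 21.1%, 26.3% and 26.3% of members, against 12.9%, 18.0% and 12.7% of genes. Few counts limit Dnajc28 and the Dnajc12 transcripts.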
